A study of Mus musculus with 8 samples.

Results

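The mRNAs described here encode proteins with long runs of glutamate and aspartate, and the question was where along them Flag-tagged MBD5 and MBD6 were crosslinked in mouse embryonic stem cells. The 10 genes are Nrd1, Ncl, Npm1, Set, Anp32a, Anp32b, Anp32e, Hmgb1, Hmgb2 and Ptma, among 21694 protein-coding genes with a complete coding sequence. They were chosen by name, with earlier results of these data known, because an early coding site of Nrd1 had among the highest fold enrichments. Their members are the peaks whose midpoint lay in the body of one of these genes on the same strand, which gave 139 of 29555 peaks in 4 libraries.

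Each protein had 2 CLIP libraries, in which RNA bound to a protein is crosslinked, immunoprecipitated and sequenced. The cells were wild-type mouse embryonic stem cells (mESCs) that stably overexpressed the human coding sequence of MBD5 or of MBD6 with a Flag tag from a lentivirus-delivered vector, under hygromycin. All groups therefore carried an overexpressed transgene, and the tagged protein was human in mouse cells. The characteristics of the CLIP samples name a Flag antibody, the extraction protocol names an MBD6 antibody, and the tissue label reads embryos although the cell line label reads mESC. Of 10 marker genes of embryonic stem cells, between 5 and 8 held a peak in each library. Sox2, Esrrb, Zfp42 and Dnmt3l held a peak in every library. Pou5f1 and Nanog held a peak in the Flag-MBD6 libraries alone and Lin28a in none. Of 6 fibroblast markers none held a peak. The 4 digested inputs were not analysed here as samples of their own.

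Acidic stretches are low-complexity segments in which aspartate and glutamate follow each other. They bind basic proteins such as histones, and they are common in nuclear chaperones and in nucleolar proteins. Aspartate and glutamate codons all begin with G followed by A, so that mRNA encoding such a stretch is rich in purines. An acid-coding segment was defined here as the codons of every window of 20 residues with 14 or more acidic residues, merged and trimmed to acidic ends. By that rule the 10 genes held 14 segments. Ptma held the highest share of its coding sequence in a segment (35.1%), and Nrd1 held the lowest (6.12%).

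The 150-nt extension of the reads before peak calling placed the 5′ end of a peak where the reads began to accumulate. The stretch from there to 150 nt before the 3′ end of the peak is called the read-start zone. The following sequences show what the mRNAs looked like at acid-coding sites on which the results turn. Each gives 10 codons in frame, 5′ to 3′ on the mRNA, with aspartate and glutamate codons in capitals. Coordinates are those of mm10. For Ncl and Hmgb2 the lines begin where a segment begins. For the others they begin at the codon that holds a 5′ end of the peaks shared by most libraries, or by as many as any other.
Ncl, residues 241 to 250, exon 4 (chr1:86356623-86356652, minus strand): GAGGAGGAGGATGATGAGGAAGAGGATGAA
Npm1, residues 159 to 168, exon 6 (chr11:33159951-33159980, minus strand): GATGAAGATGATGAGGACGATGATGAGGAC
Set, residues 236 to 245, exon 7 (chr2:30070447-30070476, plus strand): GACatgGATGATGAAGAAggaGAGgcaGAA
Anp32a, residues 160 to 169, exon 4 (chr9:62373635-62373664, plus strand): gttGAGggctacgtgGAGGATGACGACGAG
Anp32e, residues 146 to 155, exon 4 (chr3:95937132-95937161, plus strand): GACggattcGACcagGAGGACaacGAAgct
Anp32a, residues 180 to 189, exon 5 (chr9:62374671-62374700, plus strand): tatgcccagctagtgGAAGATGAAGAGGAA
Anp32b, residues 189 to 198, exon 5 (chr4:46469891-46469920, plus strand): GATGAAGAGGAAGAGGAAGATGAGGATggt
Anp32e, residues 169 to 178, exon 5 (chr3:95937887-95937916, plus strand): GATGAAGATGAGGAAGATGAGGACGAAGAT
Hmgb1, residues 191 to 200, exon 5 (chr5:149048785-149048814, minus strand): GAGGAGGATGAAGAGGATGAGGAAGAGGAG
Hmgb2, residues 186 to 195, exon 5 (chr8:57514050-57514079, plus strand): GAAccaGAAGATGAGGAGGAGGAAGAAGAG
Ptma, residues 50 to 59, exon 3 (chr1:86529486-86529515, plus strand): GACaatGAGgtaGATGAAGAAGAGGAAGAA

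No read totals come with the peaks. For each peak, the reads at its summit and the background rate (the reads MACS2 expected there) were obtained by solving its fold enrichment and its −log10 p, both deposited, and depth was taken from the lowest rate. Depth was estimated at 478790 and 500143 reads for Flag-MBD5 and at 983918 and 1111742 reads for Flag-MBD6. At 685 sites with 60 or more reads in both Flag-MBD6 libraries, the Flag-MBD5 replicates differed by less than the sampling noise (chi-square per degree of freedom 0.496). At 277 sites chosen in the reverse way, the Flag-MBD6 replicates did too (0.414). Each protein was therefore counted as 1 sample, values of both libraries are printed with no SD, and the proteins were not tested against each other. The fold enrichment adds 1 read to both the signal and the background, so that at low background it rises with depth and is not comparable between libraries of different depth. The level of the mRNAs was not measured in these files, so that more RNA and more binding per RNA cannot be told apart.

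Together the 10 genes had 29 and 28 peaks with Flag-MBD5, and with Flag-MBD6 they had 42 and 40. When the best 5362 peaks of each library were taken, the Flag-MBD6 counts were 31 and 33, nearer to those of Flag-MBD5. A reproducible region, found in both libraries of a protein, lay in 9 of the 10 genes for Flag-MBD5 and in 9 of the 10 for Flag-MBD6. Over all protein-coding genes the background was 7.8% (Flag-MBD5) and 13.8% (Flag-MBD6). That is 1692 genes for Flag-MBD5, and 2582 when a peak in either library was enough. Hmgb1 was the gene without a region for either protein. Nrd1 was chosen for its site, and nothing is read from its place in these counts.

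Merged over the libraries, the peaks fell into 47 sites, of which 22 were found in all 4 libraries. Over the whole series it was 3566 of 12074 sites. Among those 22 sites, the read-start zone reached an acid-coding segment in 14. The share of zones that did so in other genes is given below, by peaks. Of the 139 peaks, 115 began in coding sequence, 14 in an intron, 8 in a 5′ UTR and 2 in a 3′ UTR. Each of the 10 genes had at least 1 site whose read-start zone reached an acid-coding segment. A zone counted as reaching a segment if it held at least 1 nt of it, and the part covered differed widely. Read starts covered 0.901% of the Hmgb1 segment in Flag-MBD6 1, 1.93% to 13.0% of that of Anp32a and at most 2.67% of the downstream one of Anp32e. In all 4 libraries read starts reached 11 of the 14 segments, and the other 3 segments were the downstream segment of Anp32e (3 libraries), that of Ptma (2 libraries) and that of Hmgb1 (1 library).

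**Figure D1:**
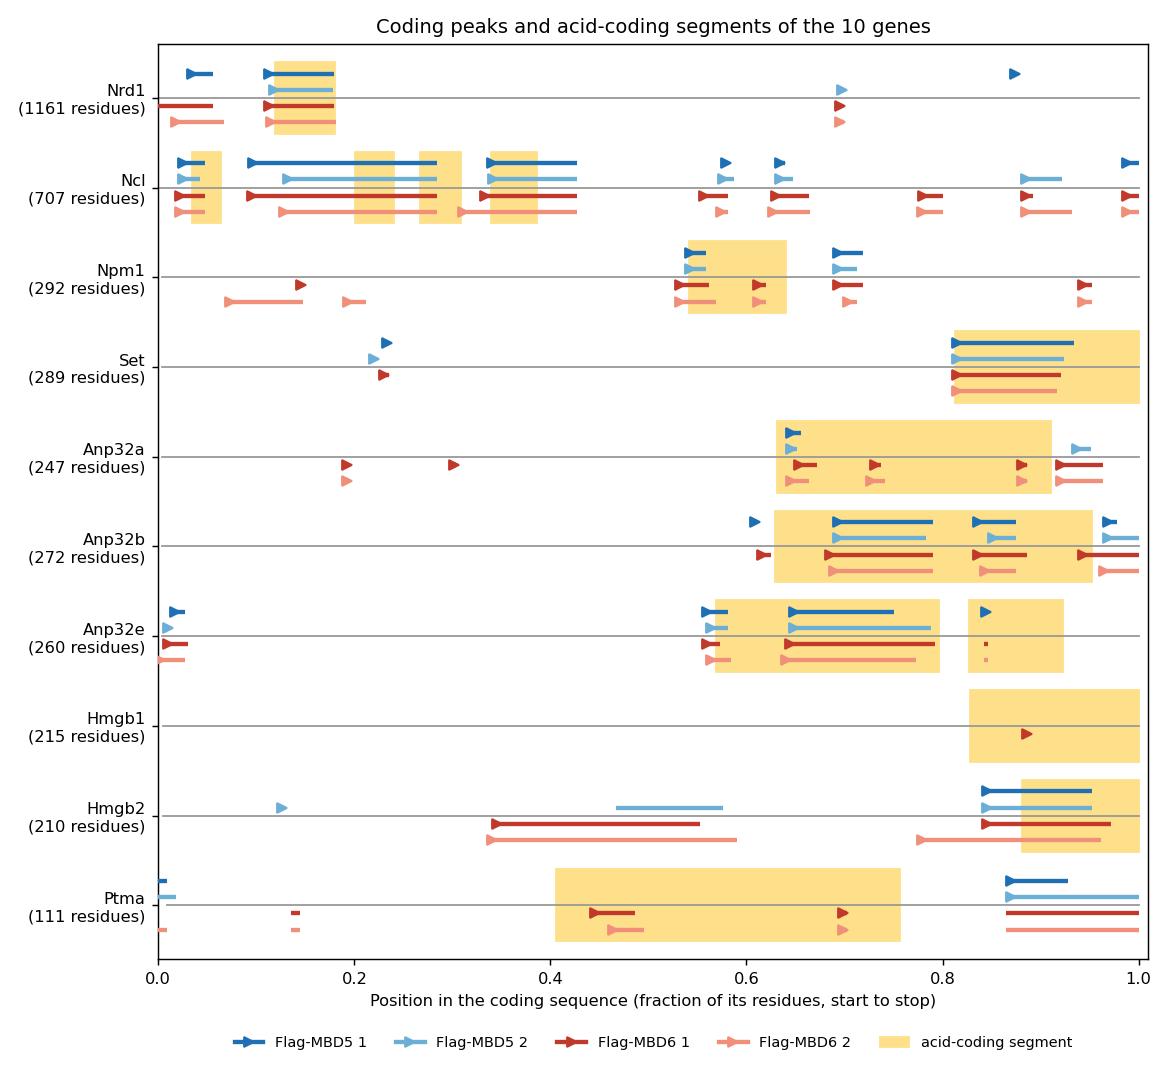
Coding peaks of the 10 genes by position in the coding sequence, as a fraction of its residues from start to stop. Yellow blocks are acid-coding segments, arrowheads are 5′ ends of peaks and bars are the coding part of read-start zones. A bar without an arrowhead belongs to a peak that began outside the coding sequence. The zone reached a segment in 57.1% of the Anp32a peaks, 64.3% of the Anp32b peaks and 68.8% of the Anp32e peaks. Read starts reached 11 of the 14 segments in all 4 libraries.

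Nrd1 encodes nardilysin, a zinc metalloprotease of the M16 family with an acidic stretch inserted in its amino-terminal part. Its segment, residues 139 to 209 with 57 acidic residues of 71, lay within exon 2 (chr4:109013592-109013804). Fold enrichment there reached 69.3 and 64.4 with Flag-MBD5 and 108 and 114 with Flag-MBD6, over 89 and 91 reads and over 173 and 191 reads at the summit. It stood at place 5 of the 3566 sites found in all 4 libraries by mean rank of fold enrichment, which is the value that led to the choice of these genes.

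The Nrd1 peak began 5′ of the segment in all 4 libraries, at residue 132 in the first library of each protein, at residue 137 in Flag-MBD5 2 and at residue 134 in Flag-MBD6 2. Its read-start zone was 210 to 229 nt long and ended at residue 207 to 210, so that it covered between 96.2% and 100% of the segment. The zone thus began and ended within 10 residues of the segment at either side. The peaks were 359 to 378 nt wide, against a median of 166 nt over all peaks. The other peaks of Nrd1, in exons 1, 21 and 28, had a fold enrichment of 5.59 to 11.2 and none was found in all 4 libraries.

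Ncl encodes nucleolin, the abundant nucleolar protein of ribosome biogenesis, whose amino-terminal part holds 4 acid-coding segments in exons 2 to 5. Of its 9 sites, 7 were found in all 4 libraries. The exon 3 site had a fold enrichment of 66.1 and 61.4 in Flag-MBD5 and of 101 and 71.8 in Flag-MBD6, and stood at place 10 of 3566. Its peaks began at residues 68 to 94, well before the segment at residues 143 to 170, and read starts went on to residue 201, so that the zone covered all of that segment and 40.2% of the next. The exon 2 site had a fold enrichment of 33.8 and 28.3 in Flag-MBD5 and of 38.7 and 36.5 in Flag-MBD6. It began at residue 16 or 18 and covered between 27.0% and 44.4% of the segment at residues 25 to 45.

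The exon 4 site of Ncl differed between the proteins in what its summit marked. The merged peak ran from exon 4, with the segment at residues 241 to 273, into a following intron, where it covered Snord82, a small nucleolar RNA gene on the same strand. The summit lay on Snord82 in both Flag-MBD5 libraries and in the coding sequence in both Flag-MBD6 libraries. With Flag-MBD5 the fold enrichment was 8.65 and 9.16, over background rates of 10.2 and 8.83 reads. With Flag-MBD6 it was 38.1 and 35.5, over rates of 3.15 and 3.59 reads. The summits held 96 and 89 reads against 157 and 162, at different positions, so that neither these reads nor the fold enrichments compare the acid-coding sequence between the proteins.

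Of the 34 Ncl peaks, 12 overlapped a small RNA gene that Ncl hosts. The intronic site had its summit on Snora75 in all 4 libraries, with a fold enrichment of 21.6 to 27.2. The site that began in or after exon 11 had its summit on an annotated small RNA gene in all 4 libraries, with a fold enrichment of 6.82 to 10.1. At these sites reads from the hosted RNA and from the Ncl transcript cannot be told apart. The further coding sites, in exons 8, 9, 13 and 14, downstream of the acidic part, ranged from 6.71 to 26.4.

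Npm1 encodes nucleophosmin, a nucleolar histone chaperone with an acidic stretch in its middle. Its segment, residues 159 to 187 with 27 acidic residues of 29, crossed from exon 6 to exon 7. The exon 6 site had a fold enrichment of 13.6 and 14.7 in Flag-MBD5 and of 12.3 and 14.8 in Flag-MBD6. It began at residue 159, the first of the segment, in both Flag-MBD5 libraries and at residue 156 in both Flag-MBD6 libraries. The exon 7 site, at residue 179, was found in both Flag-MBD6 libraries alone, with a fold enrichment of 8.38 and 9.50. Another site in all 4 libraries began at residue 203 to 206 in exon 8, downstream of the segment, and had a fold enrichment of 8.50 to 15.1.

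Set encodes a histone chaperone and inhibitor of protein phosphatase 2A, whose acidic tail ends the protein. Its segment, residues 236 to 289 with 43 acidic residues of 54, lay in exons 7 and 8. The peak began at the same base (chr2:30070448), in the codon of residue 236, in all 4 libraries. The fold enrichment was 54.3 and 44.5 in Flag-MBD5 and 64.8 and 57.8 in Flag-MBD6, over 74 and 61 reads and over 125 and 118 reads. Read starts went on to residue 270, 267, 266 and 265, so that the zone lay within the segment. No other Set site was found in all 4 libraries, and the fold enrichment of the others was 5.39 to 8.57.

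Anp32a, Anp32b and Anp32e encode related nuclear chaperones with leucine-rich repeats and an acidic tail, of which ANP32E removes H2A.Z from chromatin. Their tails are spread over exons 4 to 7, and the peaks were too. In exon 4 the 3 genes had a site at like places. It began at residue 160 or 162 of Anp32a in all 4 libraries, at residue 146 or 147 of Anp32e in all 4 libraries, and at residue 166 or 168 of Anp32b in 1 library of each protein. The fold enrichment at these exon 4 sites was 8.40 to 12.4 for Anp32a, 10.8 to 15.0 for Anp32e and 6.65 and 9.31 for Anp32b. That of Anp32b lay before its segment, which begins at residue 172, and its read-start zone did not reach it.

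In exon 5 the family parted. Anp32b had its highest site there, at residues 187 to 189, with a fold enrichment of 59.2 and 53.4 in Flag-MBD5 and of 72.6 and 59.1 in Flag-MBD6. Anp32e began at residues 167 to 169, with 14.6 and 20.6 in Flag-MBD5 and 22.6 and 35.2 in Flag-MBD6. Anp32a began at residue 180 or 181 in the Flag-MBD6 libraries alone, with 8.69 and 11.8. In the 10 codons from the commonest 5′ end, 9 were acidic in Anp32b, 10 in Anp32e and 5 in Anp32a. The zone was 73 to 84 nt long in Anp32b, 79 to 114 nt in Anp32e and 4 to 9 nt in Anp32a.

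In exon 6 Anp32b began at residues 228 to 232 in all 4 libraries, with a fold enrichment from 15.4 in Flag-MBD5 1 to 27.3 in Flag-MBD6 1. Anp32e had a site at the boundary before residue 220 in all 4 libraries, with 6.91 and 6.86 and with 13.7 and 13.6, whose 5′ end lay up to 6 nt inside the intron in 3 of the libraries. Anp32a had a site at residue 218 in both Flag-MBD6 libraries alone, with 10.9 and 11.0. In exon 7 Anp32b began at residues 257 to 264, around the end of its segment at residue 259, with a fold enrichment of 11.5 to 27.8. Anp32a began there at residue 228 in both Flag-MBD6 libraries and at residue 232 in Flag-MBD5 2, past the end of its segment at residue 225, with up to 17.3. Anp32e alone of the family had a site at the start codon, at residues 1 to 5 in all 4 libraries, with 8.87 to 15.5.

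Hmgb1 and Hmgb2 encode high mobility group proteins, which bend DNA with their HMG boxes and end in an acidic tail. Hmgb2 had a site in exon 5 in all 4 libraries, with a fold enrichment of 34.9 and 33.1 in Flag-MBD5 and of 40.4 and 51.5 in Flag-MBD6. It began at residue 178 in 3 libraries and at residue 164 in Flag-MBD6 2, before the segment at residues 186 to 210, and read starts ran on to residues 200 to 204. Its other sites, at residue 27 and around residue 72, were found in 1 and 3 libraries, with a fold enrichment of up to 10.7. Hmgb1 had a single peak, in Flag-MBD6 1, with a fold enrichment of 7.87 over 11 reads, which began at residue 191 inside its segment of residues 179 to 215.

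Ptma encodes prothymosin alpha, a small and very acidic nuclear protein that binds linker histone. Among peaks placed in Ptma itself, its segment, residues 46 to 84, was reached in the Flag-MBD6 libraries alone. In those libraries a site began at residue 50 or 52, with a fold enrichment of 9.94 and 9.74. Another began at residue 78, with 6.67 and 7.19. With Flag-MBD5, peaks at copies of Ptma began in this acid-coding sequence, as given below. The sites of Ptma found in all 4 libraries lay outside the segment. A 5′ UTR site, whose read-start zone reached the start codon in 3 of the libraries, had 8.56 and 12.6 in Flag-MBD5 and 5.13 and 9.89 in Flag-MBD6. A site at the beginning of exon 5, at residue 97 and up to 2 nt into the intron before it, had 16.7 and 8.98 in Flag-MBD5 and 15.1 and 12.5 in Flag-MBD6.

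**Figure D2:**
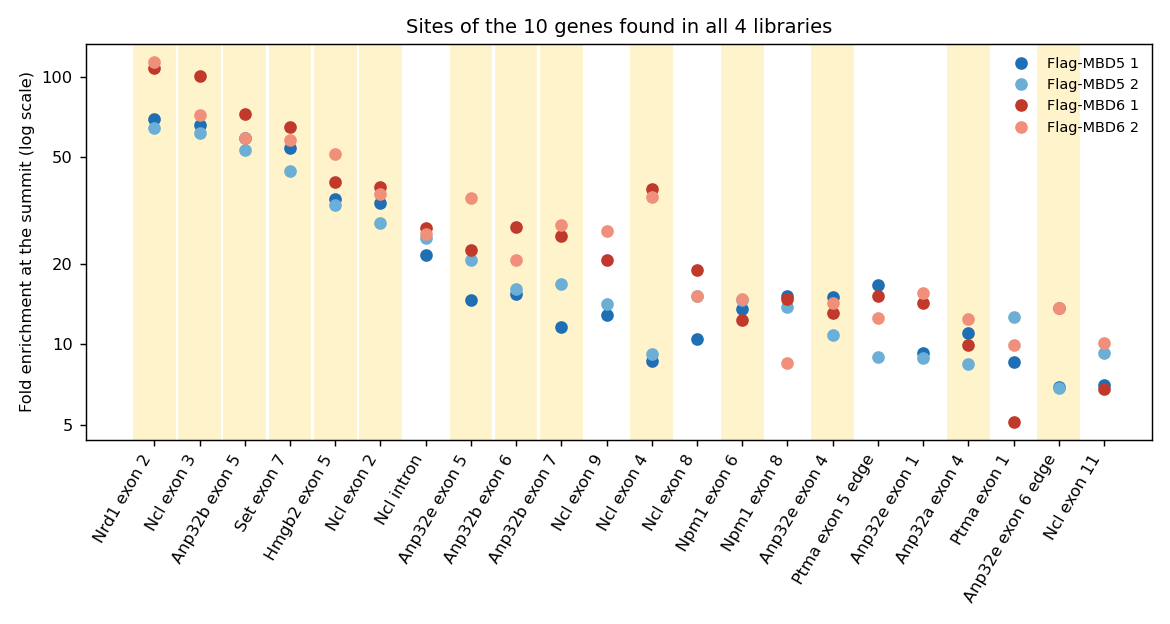
Fold enrichment at the summit (log scale) in each library for the 22 sites found in all 4 libraries, in order of mean rank, with a shaded band where the read-start zone reached an acid-coding segment. The 6 sites on the left are shaded, from Nrd1 exon 2 at 64.4 to 114 to Ncl exon 2 at 28.3 to 38.7, and the Ncl exon 4 values compare summits at different positions.

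The position of the peaks was then set against the share of coding sequence that is acid-coding. Of the coding peaks of the 10 genes, 33.3% and 30.4% began in acid-coding sequence with Flag-MBD5, as did 34.3% and 30.3% with Flag-MBD6. The background among coding peaks of all other genes was 1.95% for Flag-MBD5 and 1.18% for Flag-MBD6. That gap follows largely from the choice of genes, since 16.1% of their coding sequence was acid-coding against 0.229% in the other genes with a coding peak. Averaged over the same peaks, the share of acid-coding sequence was 20.5% for the 10 genes, and 19.7% to 20.97% over the peaks of each library. The share of peaks that began there was thus the higher value in all 4 libraries. The 95% Wilson interval of each library included that library's own share of sequence, and ran from 15.6% to 50.9% in Flag-MBD5 2 (7 of 23 peaks). In Flag-MBD6 1 its lower bound, 20.8%, came just below the 20.9% of sequence. Over the 4 libraries together 32.2% of the peaks began there, with an interval of 24.3% to 41.2% that lay above 20.5% but is too narrow, since it counts the same sites in libraries that differed by less than the sampling noise. With segments defined instead as runs of 8 or more acidic residues, 13.0% of the coding peaks began in one, where 10.5% of the sequence lay. With windows of 30 residues it was 47.8%, where 26.1% lay. Wilson intervals and those given below cover counting error only, and a count of peaks over the 4 libraries can count a site up to 4 times.

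Read-start zones, counted over all 139 peaks and not over the 115 coding peaks alone, gave a higher share. A peak that began before a segment could still run into it, as did the strongest sites of Nrd1, Ncl and Hmgb2. Peaks of Anp32e (11 zones against 5 peaks that began in a segment) and of Npm1 (6 against 4) did so as well. The zone reached acid-coding sequence in 44.8% and 42.9% of the Flag-MBD5 peaks and in 47.6% and 45.0% of the Flag-MBD6 peaks. Over the peaks of all other genes the background was 2.81% for Flag-MBD5 and 2.13% for Flag-MBD6. In other genes with a segment it was 24.9% and 26.2% in Flag-MBD5 and 22.9% and 22.1% in Flag-MBD6. A zone holds the 5′ end and the bases after it, so the share of sequence set against 5′ ends is no background for it. By gene the share of peaks whose zone reached a segment was 68.8% for Anp32e (11 of 16), 64.3% for Anp32b (9 of 14) and 57.1% for Anp32a (8 of 14). It was 50.0% for Hmgb2 (4 of 8), 44.4% for Set (4 of 9), 36.4% for Nrd1 (4 of 11) and 35.3% for Ncl (12 of 34). Npm1 had 33.3% (6 of 18) and Ptma 28.6% (4 of 14), and the lone Hmgb1 peak reached its segment. Without Nrd1 the share over the remaining genes was 46.1%, against 45.3% with it. With runs of 8 or more acidic residues as segments it was 30.2%.

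Other genes with an acid-coding segment also had a higher share of peaks that began there than of sequence. Of their coding peaks, 17.6% and 16.1% began in acid-coding sequence in Flag-MBD5 and 12.4% and 11.1% in Flag-MBD6, where the mean share of such sequence over the same peaks was 3.60% to 3.88%. The Wilson interval of each single library lay above that share, and the lowest bound was 9.02%. Among the 439 such genes, 35.1% held a Flag-MBD5 region and 47.6% a Flag-MBD6 region, against 7.20% and 13.0% of the 21245 genes without a segment. Their proteins were longer as well, with a median of 709 residues against 383.

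**Figure D3:**
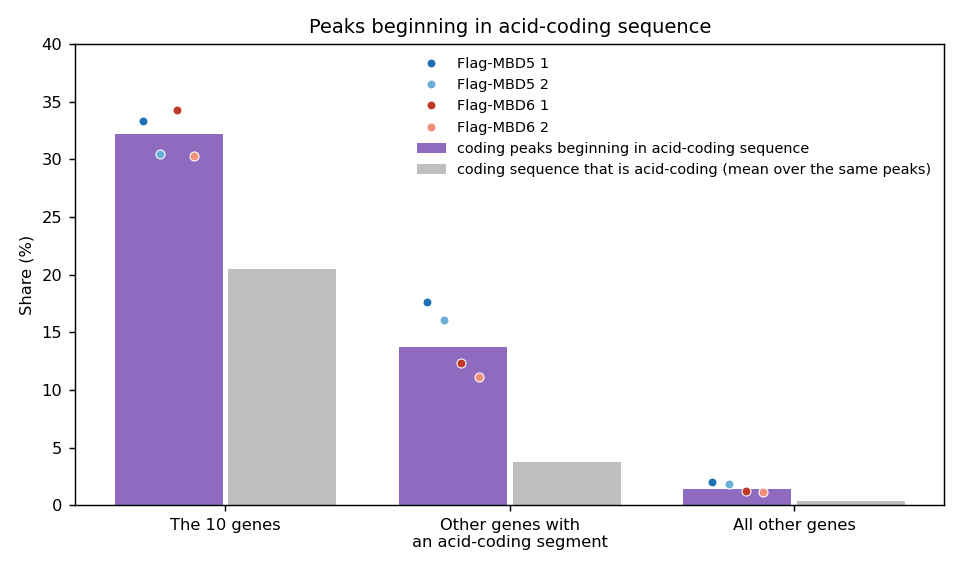
Share of coding peaks that began in acid-coding sequence (purple bars, all libraries; points, each library) beside the mean share of the coding sequence of the same peaks that is acid-coding (grey). The points lie at 30.3% to 34.3% above a grey bar of 20.5% in the 10 genes, and at 11.1% to 17.6% above 3.74% in other genes with a segment.

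The residues encoded where the peaks began were acidic more often than the proteins as a whole in 9 of the 10 genes, with Hmgb2 the exception. Of the 10 codons from each 5′ end, 41.7% encoded aspartate or glutamate in the 10 genes, against 29.6% of their coding sequence averaged over the same peaks. In other genes it was 23.7% against 14.7%. The rise over all genes was not particular to acidic residues, for lysine, which is basic, took 12.6% of these codons in other genes against 7.73% of the coding sequence, glutamate 15.2% against 9.07% and aspartate 8.43% against 5.60%. In the 10 genes lysine took 10.3% against 9.55%. Among peaks of the 10 genes that began outside a segment, acidic codons took 25.7% against 27.0% of the coding sequence. By gene the share of acidic codons ran from 11.4% in Hmgb2, whose peaks began before the tail and whose whole coding sequence held 23.3%, to 65.9% in Anp32b, against 39.7%, apart from the lone peak of Hmgb1 in which it was 100%.

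The acid-coding segments held little cytosine. Their bases were 42.3% G, 39.4% A, 13.1% T and 5.22% C, against 20.5% C in the rest of the coding sequence of the 10 genes. Cytosine is the base that carries 5-methylcytosine, the RNA mark that the study was about. The codons GAA and GAT and GAG took 25.0%, 24.2% and 23.9% of the segments, and GAC took 7.08%. In the first 30 nt of coding peaks that began in a segment cytosine was 6.04%, and in those of the 10 genes that began elsewhere it was 18.5%. It was 20.8% in the first 30 nt of coding peaks of other genes.

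Within the codon, the 5′ ends in acid-coding sequence gathered at the middle base. Of the 37 peaks that began in acid-coding sequence, 31 (83.8%) began at the middle base of a codon, and G preceded 97.3% of them. Of the 78 coding peaks of the 10 genes that began elsewhere, 46.2% began at the middle base and 80.8% followed a G. In other genes the shares were 66.7% and 87.7% in acid-coding sequence and 41.5% and 77.2% elsewhere. RNase T1, with which the immunoprecipitated RNA was digested, cleaves RNA after G. In the acid-coding segments of the 10 genes, 70.9% of all G stood at the first base of a codon, against 45.4% in the rest of their coding sequence. How far the digestion set the 5′ ends was not tested.

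**Figure D4:**
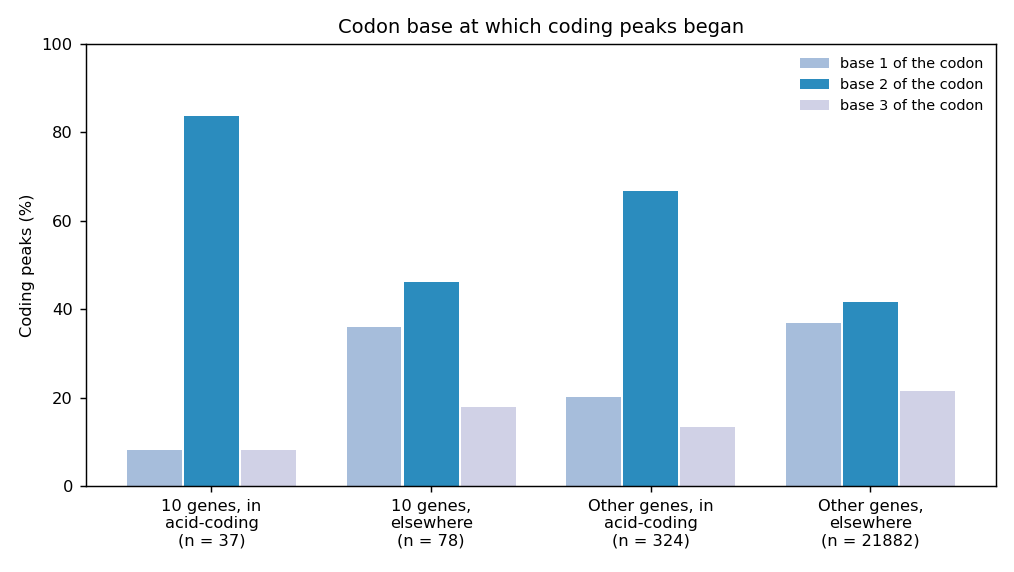
Share of coding peaks whose 5′ end lay at base 1, 2 or 3 of a codon, for peaks that began in acid-coding sequence or elsewhere, in the 10 genes and in other genes. Base 2 took 83.8% in acid-coding sequence of the 10 genes and 66.7% in that of other genes, against 46.2% and 41.5% elsewhere.

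Many of these peaks also began close to the start of an exon. Of the 37 peaks that began in acid-coding sequence, 25 (67.6%) lay within 20 nt of the start of an exon other than the first, where 13.8% of the bases of the segments lie. The Set exon 7 peak began 7 nt into the exon, that of Anp32b in exon 5 at 4 to 9 nt and that of Anp32e in exon 5 at 0 to 6 nt. In acid-coding sequence of other genes the share was 23.8%, where 4.74% of the bases lie. Over all coding peaks of other genes it was 22.9%, against 11.5% of the bases of their coding sequence. The reads had been aligned without splicing, so that a read across an exon junction could not be placed as such, and the part of this in the positions was not tested.

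Several of the 10 genes have processed copies in the genome, which bears on where their reads were placed. The authors dropped a read with more than 10 equally good positions and otherwise reported 1 of them. For Hmgb1, 62.2% of the 30-nt stretches of its acid-coding segment and 96.1% of those in the rest of its coding sequence occurred in 10 or more other annotated genes. Hmgb1 was the gene with a single peak. All 30-nt stretches of the Set and Ptma segments occurred in at least 1 other gene, 67.8% of those of Npm1, 45.7% of those of Hmgb2, 25.0% of those of Anp32b and 23.7% of those of Ncl. For Nrd1 it was 4.23%, and for Anp32a and Anp32e none. The segments of these 3 genes thus shared few or no exact 30-nt stretches with other annotated genes. Shorter reads were allowed, as were mismatches in the alignment. These shares therefore cannot show that reads in the segments had a single position.

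Peaks were indeed called at copies. A further 120 peaks, beside the 139, lay at 34 other genes and began with 30 nt found in the coding sequence of 1 of the 10 genes, and all 34 were annotated as pseudogenes. Of these, 46 peaks at 16 copies began with acid-coding sequence. Set had the most, with 24 such peaks at 8 copies. The copies named here were chosen after their values were seen. In each library the highest peak of the Set copy Gm9531 began at a codon of residues 156 to 232, before the segment. Its fold enrichment was 47.7 and 57.9 in Flag-MBD5 and 78.8 and 87.0 in Flag-MBD6. At Set itself it was 54.3 and 44.5 in Flag-MBD5 and 64.8 and 57.8 in Flag-MBD6. The Set copy Gm6847 began with the codon of residue 236, as Set itself did, in 3 libraries and with that of residue 235 in Flag-MBD6 1, and its fold enrichment was 29.3 and 22.9 in Flag-MBD5 and 34.8 and 34.3 in Flag-MBD6. At the acidic tail of Hmgb1 the copy Hmgb1-ps7 had a peak in all 4 libraries, with 24.6 and 22.1 in Flag-MBD5 and 19.2 and 22.5 in Flag-MBD6. For Npm1 the copy Gm5611 began at the codon of residue 175 or 176. It had 21.3 and 15.1 in Flag-MBD5 and 47.8 and 22.8 in Flag-MBD6. The Npm1 copy Gm14681 had a peak in both Flag-MBD6 libraries and in Flag-MBD5 1, at the codon of residue 156. There Npm1 itself began with Flag-MBD6, with 12.3 and 14.8. The copy had 66.8 and 91.0 in Flag-MBD6 and 69.6 in Flag-MBD5 1. The Ncl copy Gm12020 had 8 peaks, 2 in each library, with a fold enrichment of 12.6 to 50.5, which began at the codon of residue 27 or 28, inside a segment, and of residues 135 to 140, before one. The Anp32b copy Anp32b-ps1 had a peak in 3 libraries, at the codons of residues 176 to 178, with 24.2 to 39.6. Of 21 peaks at Ptma copies, 6 at 3 copies began in acid-coding sequence. With Flag-MBD5 these began at the codon of residue 50 or 52 in Gm7614, 78 in Gm12504 and 82 in Gm9800. Their fold enrichment was 4.76 to 13.1. With Flag-MBD6 they began at the codon of residue 78 or 81 in Gm12504, with 12.1 and 14.2. Where the sequence of Set, Npm1, Hmgb1, Hmgb2, Ptma, Ncl and Anp32b is shared with a copy, the transcript of origin cannot be told apart.

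The proteins were compared at the 22 sites found in all 4 libraries, by summit reads summed over the libraries of a protein and scaled to depth. Over all 3566 such sites the median log2 ratio of Flag-MBD6 over Flag-MBD5 was −0.34, and at the sites of the 10 genes it was −0.32. Relative to the median of all sites the 22 sites had a median of 0.016 on the log2 scale, and by the deposited fold enrichment 0.36, so that the direction turned with the scaling. None of the 22 sites was 2-fold or more higher in Flag-MBD6, where the background was 0.869% of all sites. The exon 4 site of Anp32e was alone in being 2-fold or more higher in Flag-MBD5 (ratio 0.498, 95% exact interval 0.325 to 0.766), where the background was 9.93%.

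At the acid-coding site of Nrd1 the ratio was 0.945 (95% exact interval 0.788 to 1.14), at that of Set 0.841 (0.679 to 1.05), at that of Anp32b in exon 5 0.780 (0.632 to 0.965) and at that of Hmgb2 0.832 (0.639 to 1.09). Against the median ratio of all sites, 0.792, the interval of 19 of the 22 sites included it. That of the Ncl exon 9 site lay above, and those of the exon 4 site of Anp32e and of the 5′ UTR site of Ptma lay below. The 14 sites that reached a segment had a median log2 ratio of −0.26, and the 8 others −0.45. Both ranges overlapped (−1.01 to 0.33 and −0.92 to 0.31). The 14 sites, and so the 22, hold the Ncl exon 4 site, whose summits lay at different positions with Flag-MBD5 and with Flag-MBD6. Between libraries of different proteins the chi-square per degree of freedom over the 22 sites was 1.10 to 1.38, and between replicates it was 0.550 and 0.648.

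**Figure D5:**
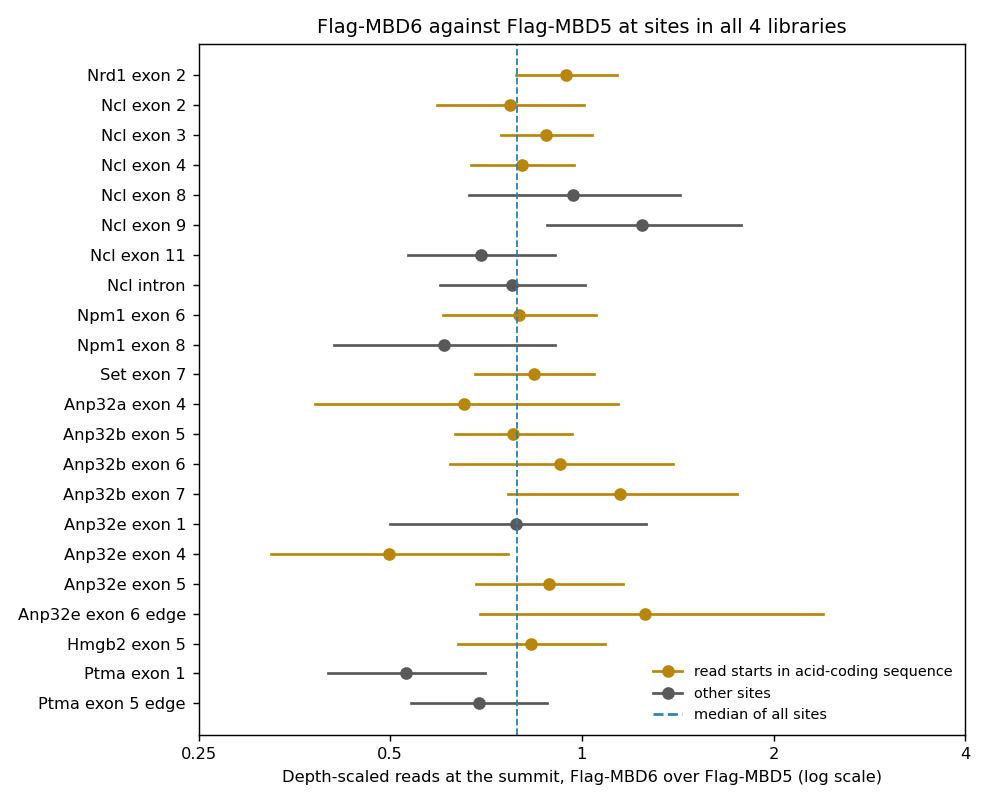
Depth-scaled reads at the summit, Flag-MBD6 over Flag-MBD5 (log scale), at the 22 sites found in all 4 libraries, with 95% exact intervals for counting error. The dashed line is the median of all 3566 sites, 0.792, which 19 of the 22 intervals include. The Ncl exon 4 ratio compares summits at different positions.

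A further 13 sites were found with Flag-MBD6 alone, 9 of them in both of its libraries. Of the 13 sites 6 reached an acid-coding segment, as did 20 of all 47 sites of the 10 genes. The share of such sites over the whole series is not given here, so nothing about the 10 genes is read from this count. The Flag-MBD6 libraries held 9218 and 9587 peaks in all, against 5362 and 5388 with Flag-MBD5. The 13 sites had 11 to 32 reads at the summit, which scaled to the depth of Flag-MBD5 would be 5.14 to 14.9 reads. The smallest peaks called in the Flag-MBD5 libraries held 5 reads, so that a lack of these sites in Flag-MBD5 was not shown at this depth. The 3 sites found with Flag-MBD5 alone were each in 1 library, with 6 to 11 reads, and none reached a segment.

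Among genes outside the 10, the sites that began in acid-coding sequence in all 4 libraries numbered 35, in 35 genes. Ordered by mean rank, the first 4 of them were in Rnf34, which encodes a ubiquitin ligase, Bptf, a subunit of the NURF chromatin remodeller, Aplp2, a relative of the amyloid precursor protein, and Tpr, a component of the nuclear pore basket. The Rnf34 site began at residue 219, in a segment of residues 215 to 245, with a fold enrichment of 53.1 and 49.7 in Flag-MBD5 and of 54.5 and 57.9 in Flag-MBD6. The Bptf site began at residue 143 in exon 1, near the amino terminus of a protein of 2921 residues, with 43.6 and 30.3 and with 49.8 and 55.8. The Aplp2 and Tpr sites had a fold enrichment of 20.6 to 37.7. By mean rank over all 3566 sites, that of Rnf34 stood at place 43. The Anp32b exon 5 and Set sites, which also began in acid-coding sequence in all 4 libraries, stood at places 29 and 39. Those of Nrd1 and Ncl exon 3, at places 5 and 10, began before a segment and would not enter this list. The place of Nrd1 led to the choice of the genes. Sites of other genes that only ran into a segment were not ranked here.

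Of 17 other genes for chaperones and proteins with acidic tracts, 12 held a Flag-MBD5 region and 13 a Flag-MBD6 region, and 8 held an acid-coding segment by the rule used here. In Ptms, which encodes parathymosin, a relative of prothymosin alpha, 6 of 7 coding peaks began in acid-coding sequence. In Nap1l1, a nucleosome assembly protein, 5 of 15 did, in Ubtf 2 of 29 and in Daxx 1 of 9. In Nap1l4 none of 2 did, and none of its 3 read-start zones reached the segment. In Supt16 and Calr none of 30 and none of 14 did, although the read-start zone of 4 peaks in each reached the segment, with a fold enrichment of up to 42.0 in Supt16 and 78.6 in Calr. Hmgb3, which also has an acidic tail, held no peak in any library. Of 5 metalloproteases of the M16 family other than Nrd1, none of which had an acid-coding segment, 1 held a region for each protein, and the highest fold enrichment among their peaks was 15.3, in Pitrm1.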

How the data were processed

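Peaks of 4 CLIP libraries were analysed, 2 each for Flag-MBD5 and Flag-MBD6. The authors collapsed identical reads, kept reads over 15 nt, removed rRNA reads, aligned without splicing to mm10 with bowtie (1.0.0; up to 3 mismatches, at most 10 positions, 1 reported), split strands with SAMtools (1.16.1) and called peaks per strand and library with MACS2 (2; extension 150 bp, up to 5 reads per position, q under 0.01). They deposited a score, a fold enrichment (a ratio to the local background), −log10 p, −log10 q and a summit per peak. The cap of 5 reads per position limits the reads of a site with few start positions.

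Here, peaks were placed on the principal coding transcripts of GENCODE M21, on the same build. Ide, a listed gene, has no complete coding sequence there and was not used. Reads at the summit and the background rate were solved from the deposited ratio and −log10 p, which worked for all peaks (100%). Depth is the lowest rate of each strand, times the genome size that the authors set, over the extension, summed, and takes that rate as the genome-wide one. Whether the inputs served as the background of MACS2 is not given in the sources used here, and a Flag immunoprecipitation from untagged cells was not analysed here. Sites are unions of overlapping peaks. The proteins hold no replicate beyond 1 sample each, so no test was run, and ratios have exact binomial intervals for counting error. The genes and lists were chosen with earlier results of these data known. By the rule for named genes the text names the 10 genes, the 5 other genes with the best sites, of which 1 is not reported here, and the listed genes. Alternatives covered thresholds, overlap, the segment rule, the position used, scaling and leaving out each library. The code, run with Python 3.11.15, numpy 2.4.6 and scipy 1.17.1, was tested on simulated data. Protein sequences were translated from the transcripts.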

Additional observations from a re-analysis of the deposited data

How the results depend on the processing

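Of 45 alternatives that left out no library, 37 kept the value within its spread or counting error (for counts, within 1.5 times), and 8 did not. A stricter rule for a segment, runs of 8 or more acidic residues, gave 13.0% of coding peaks that began in acid-coding sequence against 32.2% and 30.2% of read-start zones against 45.3%. A looser rule, windows of 30 residues with 18 acidic, gave 47.8% of coding peaks. The summit in place of the 5′ end gave 46.0%, and a window of 60 nt in place of 30 nt gave 46.3% acidic codons against 41.7%. These shares thus depend on the segment rule and on the position used. A peak in either library in place of both gave 2582 genes with a Flag-MBD5 region against 1692. The median log2 ratio of Flag-MBD6 over Flag-MBD5 at the sites of the 10 genes, −0.32, turned to 0.016 when scaled by the median of all sites and to 0.36 with the deposited fold enrichment, so its direction depends on the scaling. With the replicate block it was −0.32, and the replicates share only a number. Leaving out a library in turn gave −0.38 to −0.23 for this ratio, and −0.23 without Flag-MBD5 replicate 1 was beyond the spread of library pairs (SD 0.062). The other 19 results of leaving out a library stayed within their errors: 31.2% to 32.9% of coding peaks, 44.3% to 45.9% of zones and 40.3% to 43.2% of codons. Chosen after seeing the data, leaving out Nrd1 gave 35.2% of coding peaks, and leaving out the Ncl sites over small RNA genes gave a median log2 ratio of −0.27. Depth limits the sites with few reads most, since those found with Flag-MBD6 alone would hold 5.14 to 14.9 reads at the depth of Flag-MBD5, whose smallest peaks held 5.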
